A study of Arabidopsis thaliana with 20 samples.

Results

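Transcript signals of GI and of 3 further genes that follow the day, RVE6, COR27 and AT4G33980, were traced in Arabidopsis thaliana rosette leaves over 5 harvest times. The genes were found by locus in the array's annotation: GI at AT1G22770 (probe set 264211_at), RVE6 at AT5G52660 (248328_at), COR27 at AT5G42900 (249174_at) and AT4G33980 itself (253322_at). The annotation lists RVE6 by its locus number, and AT4G33980 has no other name there. Each gene had 1 probe set, meaning 1 set of short oligonucleotides that read its transcript, so the 4 genes, of 13286 genes that the annotation names for a probe set of their own, took 4 of the 22746 probe sets that were not controls. All 4 passed the filter on low signals that left 15470 for testing.

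The circadian clock of plants is a set of transcription factors that repress and activate one another in turn, so that each gene is transcribed mainly at its own part of the day. GI (GIGANTEA) is a large plant-specific protein of the evening part of this clock. It stabilises the F-box protein ZEITLUPE and promotes flowering in long days. RVE6 belongs to the REVEILLE family of MYB-like transcription factors, some of which are morning factors that activate evening genes. COR27 was named for its induction by cold. It is a nuclear protein without a known DNA-binding domain that acts in the clock and in freezing tolerance.

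The plants were wild type (WT) or Atss3, whose mutation lies in starch synthase 3, an enzyme that lengthens the glucan chains of leaf starch. The labels name neither the mutant allele nor the ecotype. Plants were 6 weeks old, in days of 8 h light and 16 h dark. Both genotypes were cut 1 and 4 h after the lights came on, and 0.5, 4 and 8 h after they went off, which are 8.5, 12 and 16 h of the cycle. Each array measured pooled RNA of leaves 5 to 8 from 16 plants. The whole experiment was grown 2 times with separate randomizations, called run 1 and run 2 here, which gave 2 arrays for each of 10 groups and 20 arrays in all.

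Signals are linear intensities scaled by the authors to a common trimmed mean, which hides any shift in total RNA. In pooled leaves, fewer cells of a type and less RNA per cell cannot be told apart. An array is called dim for a gene where the signal lay under that array's 40th percentile, which ran from 80.5 to 104 over the 20 arrays. That percentile is a mark and not a measured limit of detection. Both measured mesophyll markers of the 6 listed were bright on every array: RCA, the activase of Rubisco, at 14890 to 28900 and the antenna gene LHCB4.2 at 3673 to 25050. The guard cell marker FMA lay at 131 to 232 and the vascular sugar exporter SWEET11 at 3002 to 8258. The root marker PYK10 lay at 92.4 to 696 and was dim on 1 array. It had group means of 162 to 539 in WT and 174 to 537 in Atss3 and was highest at 12 h in WT and at 16 h in Atss3. By limma's moderated F test its time course passed in WT (adjusted p = 0.0133) and not in Atss3 (0.0534). The part of PYK10 in the courses below was not tested. The listed flower and seed markers, and SS3, the gene mutated in Atss3, had no named probe set, so the mutant label was not checked through SS3 and these genes were not analysed here.

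All 4 genes changed over the day in both genotypes by limma's moderated F test with Benjamini-Hochberg adjustment over all 15470 probe sets. The same call was made for 44.2% of all tested probe sets in WT and 48.0% in Atss3, so being called over time does not set these genes apart. GI, COR27 and AT4G33980 had wide courses. Their group means spanned from 6.18 to 8.57 on the log2 scale in WT and from 4.52 to 9.77 in Atss3, beside a median span of 0.78 and 0.81 over all tested probe sets. RVE6 spanned 1.09 in WT and 1.25 in Atss3. Spans of the first 3 genes rest on dim arrays at their low end, and with every signal raised to its array's 40th percentile they were 4.09 to 5.68 in WT and 3.82 to 5.32 in Atss3.

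**Figure D1:**
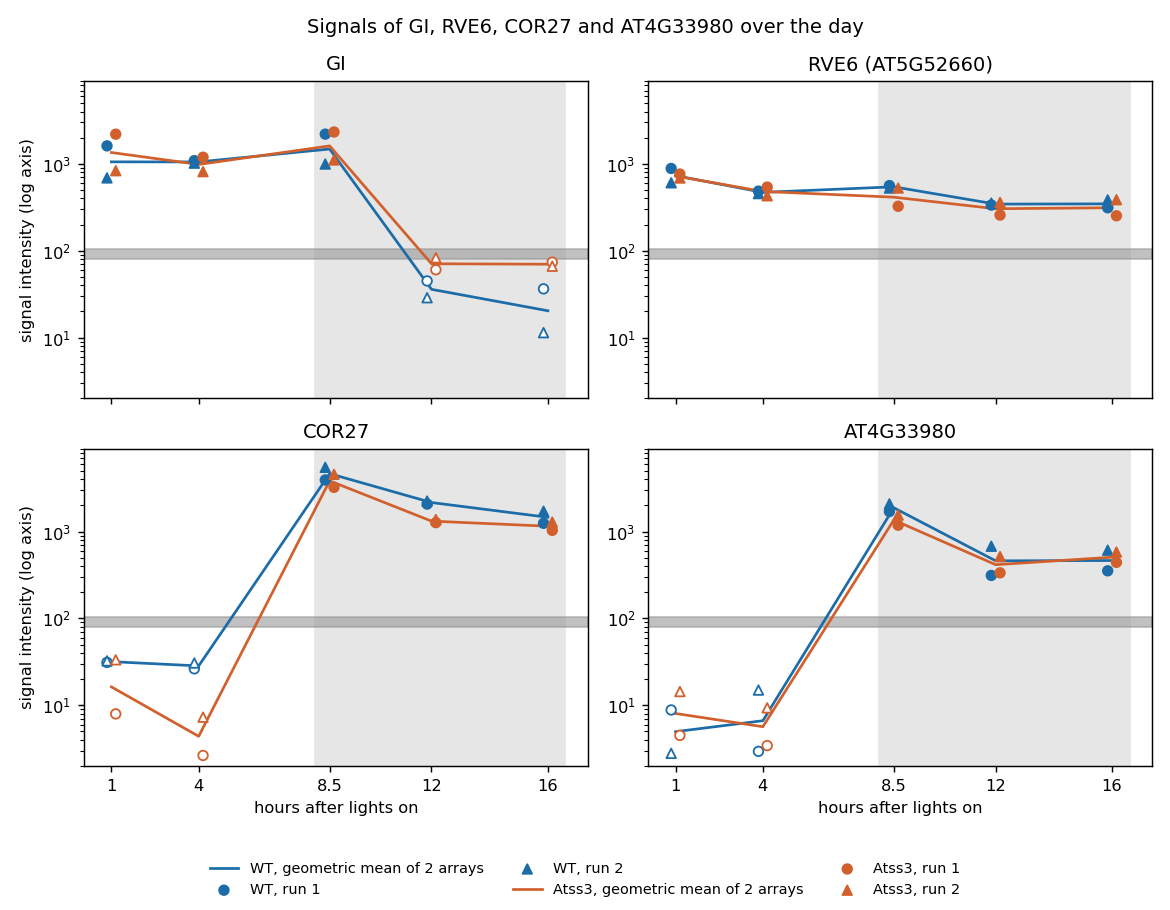
Signal intensity (log axis) of each gene on each array against hours after lights on, with circles for run 1, triangles for run 2, open symbols for dim arrays and lines through the geometric mean of the 2 arrays of a group. The pale area is darkness and the grey band is the range of the 40th percentile over the 20 arrays. GI stands above the band at 1, 4 and 8.5 h. It lies below it at 12 and 16 h, except for the Atss3 12 h array of run 2, at 83.0 inside the band. COR27 and AT4G33980 lie below it at 1 and 4 h and above it from 8.5 h on, and RVE6 stays above it throughout.

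GI was high in the light and just after lights off and fell under the mark by 12 h. In WT its signals in run 1 and run 2 were 1614 and 690 at 1 h, 1091 and 1020 at 4 h, 2203 and 997 at 8.5 h, 45.0 and 28.8 at 12 h, and 36.4 and 11.4 at 16 h. In Atss3 they were 2200 and 835 at 1 h, 1195 and 815 at 4 h, 2331 and 1110 at 8.5 h, 60.5 and 83.0 at 12 h, and 73.9 and 66.4 at 16 h. The 12 arrays of the first 3 times lay far above the 8 arrays of the last 2 times in both genotypes, with no overlap, and all 8 of the latter were dim.

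Group means of GI were ordered 8.5 h, 1 h, 4 h, 12 h and 16 h in both genotypes. In WT the highest was 1600 ± 852.8 and in Atss3 1721 ± 863.6 (mean ± SD, n = 2 arrays each). The 3 high groups overlapped and did not differ beyond their spread: 8.5 h against 1 h differed by 0.49 in WT (limma adjusted p = 0.41) and by 0.25 in Atss3 (adjusted p = 0.684) on the log2 scale. The 12 and 16 h groups also overlapped, with adjusted p of 0.628 in WT and 0.991 in Atss3.

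The drop between 8.5 and 12 h was the large step of GI. It measured -5.36 on the log2 scale in WT (SE 0.42, limma adjusted p = 3.03e-05) and -4.50 in Atss3 (adjusted p = 0.000102). Of all tested probe sets, 12.2% were called for this step in WT and 5.16% in Atss3. Since both 12 h groups were dim, the fold was also taken against each array's 40th percentile, and by that measure GI was at least 17.1-fold higher at 8.5 h than at 12 h in WT and at least 16.3-fold higher in Atss3. GI was under the mark at both 12 and 16 h, so no course can be read between them: that step was -0.82 in WT as deposited and 0.084 with raised signals.

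RVE6 was never dim and had the smallest span of the 4 genes. In WT its signals in run 1 and run 2 were 887 and 606 at 1 h, 486 and 455 at 4 h, 563 and 528 at 8.5 h, 336 and 354 at 12 h, and 313 and 385 at 16 h. In Atss3 they were 765 and 688 at 1 h, 541 and 429 at 4 h, 325 and 527 at 8.5 h, 258 and 360 at 12 h, and 253 and 387 at 16 h. The 1 h arrays stood above all 8 later arrays of the same genotype, and the arrays of 12 and 16 h overlapped.

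The mean signal of RVE6 at 1 h was 746 ± 198.4 in WT and 727 ± 54.1 in Atss3 (mean ± SD, n = 2 arrays each), against 345 ± 12.6 and 309 ± 72.5 at 12 h. The fall from 1 to 12 h was 2.13-fold in WT (-1.09 on the log2 scale, SE 0.28, limma adjusted p = 0.00971) and 2.38-fold in Atss3 (-1.25, adjusted p = 0.00357). This contrast was called for 30.8% of tested probe sets in WT and 35.3% in Atss3. No neighbours in the order of its group means differed past the threshold: in WT that order was 1, 8.5, 4, 16 and 12 h, with adjusted p from 0.267 to 0.995, and in Atss3 it was 1, 4, 8.5, 16 and 12 h, with adjusted p from 0.147 to 0.971. The fall from 1 to 16 h also passed, at -1.08 in WT (limma adjusted p = 0.0125) and -1.21 in Atss3 (0.00524). It was called for 24.6% and 31.6% of tested probe sets. From 1 to 8.5 h the fall passed in Atss3 (-0.81, limma adjusted p = 0.0353) and not in WT (-0.43, 0.267), a contrast called for 37.2% and 33.6%.

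The time course call of RVE6 depended on single arrays and on the filter. Its adjusted p was 0.0235 in WT and 0.0111 in Atss3. In WT the call was lost without the 1 h array of run 1, when the span fell to 0.73 (adjusted p = 0.0964). It was also lost without the 12 h array of run 1 (0.0534), the 12 h array of run 2 (0.0535) or the 16 h array of run 1 (0.0575), and with no filter on low signals (0.0583). In Atss3 it was lost without the 1 h array of run 1 (span 1.11, adjusted p = 0.077).

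COR27 was under the mark at 1 and 4 h, where GI was bright, and bright from 8.5 h on. In WT its signals in run 1 and run 2 were 31.2 and 32.4 at 1 h, 26.3 and 30.7 at 4 h, 3928 and 5484 at 8.5 h, 2072 and 2243 at 12 h, and 1244 and 1715 at 16 h. In Atss3 they were 7.96 and 33.4 at 1 h, 2.64 and 7.29 at 4 h, 3229 and 4556 at 8.5 h, 1266 and 1374 at 12 h, and 1033 and 1286 at 16 h. All 8 arrays of 1 and 4 h were dim, and the lowest of the other 12 arrays measured 1033.

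The rise of COR27 between 4 and 8.5 h was 7.35 on the log2 scale in WT (SE 0.41, limma adjusted p = 5.46e-07) and 9.77 in Atss3 (adjusted p = 1.57e-07). The step was called for 23.5% and 17.5% of tested probe sets. As deposited, the Atss3 step starts from dim 4 h signals of 2.64 and 7.29 and the WT step from 26.3 and 30.7. Between 1 and 4 h COR27 was also called lower in Atss3 (-1.89, adjusted p = 0.00576), where 23.6% of tested probe sets were called, but all 4 signals are dim and with raised signals that step was 0.056. Against the 40th percentile the rise was at least 50.9-fold in WT and at least 38.4-fold in Atss3. Its span over the day ranked 18 of 15470 in WT and 1 of 15470 in Atss3 as deposited, and 14 and 27 with raised signals.

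Group means of COR27 fell from 4706 ± 1100 at 8.5 h to 2158 ± 121.2 at 12 h and 1480 ± 333.2 at 16 h in WT, and from 3893 ± 938.5 to 1320 ± 75.9 and 1160 ± 178.9 in Atss3 (mean ± SD, n = 2 arrays each). The arrays of 8.5 h stood above those of 12 and 16 h in each genotype, and the 12 and 16 h arrays overlapped in Atss3 and not in WT. The fall from 8.5 to 16 h was 3.18-fold in WT (limma adjusted p = 0.0172) and 3.33-fold in Atss3 (0.013), contrasts called for 15.6% and 17.0% of tested probe sets. Without the run as a block those adjusted p were 0.0664 and 0.054, which ends both calls. The fall from 8.5 to 12 h did not pass as deposited (-1.11, limma adjusted p = 0.104 in WT and -1.54, adjusted p = 0.0515 in Atss3). With raised signals it passed (0.000685 and 9.17e-05), where the standard error of a step was 0.17 in place of 0.41. No array of 8.5 or 12 h was dim, so raising left both steps unchanged, and that pass is no separate support for the fall. The 16 h group did not differ from the 12 h group past the threshold, with adjusted p of 0.784 in WT and 0.878 in Atss3.

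AT4G33980 followed COR27 in shape. In WT its signals in run 1 and run 2 were 8.83 and 2.79 at 1 h, 2.95 and 14.97 at 4 h, 1702 and 2082 at 8.5 h, 313 and 677 at 12 h, and 353 and 610 at 16 h. In Atss3 they were 4.50 and 14.4 at 1 h, 3.44 and 9.35 at 4 h, 1183 and 1548 at 8.5 h, 335 and 515 at 12 h, and 442 and 581 at 16 h. The 8 arrays of 1 and 4 h were dim in the same groups as for COR27, the 4 arrays of 8.5 h were the highest, and the arrays of 12 and 16 h overlapped.

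The rise of AT4G33980 between 4 and 8.5 h was 8.15 on the log2 scale in WT (SE 0.65, limma adjusted p = 5.9e-06) and 7.90 in Atss3 (8.3e-06). Against the 40th percentile this was at least 20.7-fold in WT and at least 13.6-fold in Atss3. Mean signals then went from 1892 ± 269.2 at 8.5 h to 495 ± 257.9 at 12 h in WT, and from 1365 ± 258.5 to 425 ± 127.5 in Atss3 (mean ± SD, n = 2 arrays each). That fall did not pass as deposited (-2.03, limma adjusted p = 0.063 in WT and -1.70, adjusted p = 0.17 in Atss3). With raised signals it passed (0.000101 and 0.000561). No array of 8.5 or 12 h was dim, so raising left the steps unchanged and only lowered their standard error, to 0.24 from 0.65. The dim arrays of 1 and 4 h, set to their percentiles, lose spread by construction. That pass is therefore no separate support for the fall. Between 12 and 16 h the group means were level, at 482 ± 181.6 in WT and 511 ± 98.4 in Atss3 at 16 h, with adjusted p of 0.997 and 0.888.

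The shapes of the 4 courses were set side by side over the 10 group means, with signals raised to the 40th percentile. These correlations are descriptions over groups that share arrays, runs and light cycle. COR27 and AT4G33980 had a Pearson r of 0.976, GI and RVE6 one of 0.81, and GI and COR27 one of -0.38. GI shared the bright 8.5 h group with COR27 and AT4G33980, and differed from them in being bright at 1 and 4 h and dim at 12 and 16 h. GI, COR27 and AT4G33980 thus had their highest group mean at 8.5 h in both genotypes and RVE6 had it at 1 h. Among the 5534 probe sets whose time course passed in WT and in Atss3, 24.9% peaked at 8.5 h in WT and 21.4% in Atss3, and 28.5% and 30.0% peaked at 1 h.

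None of the 4 genes was called between Atss3 and WT over the 5 times by limma, where 0.0194% of tested probe sets were. The mean difference, Atss3 minus WT, of COR27 was -0.997 on the log2 scale (SE 0.18, 95% interval -1.40 to -0.60, limma unadjusted p = 0.000143, adjusted p = 0.103). Pairing arrays by time and run, it was lower in Atss3 in 9 of 10 pairs, as 2.68% of tested probe sets were in at least that many. The difference of GI was 0.63 (SE 0.19, interval 0.22 to 1.03, limma unadjusted p = 0.0055, adjusted p = 0.206), higher in Atss3 in 9 of 10 pairs, beside 3.28% of tested probe sets. RVE6 differed by -0.14 (interval -0.41 to 0.13, adjusted p = 0.635) and AT4G33980 by -0.0063 (interval -0.64 to 0.63, adjusted p = 0.996). Intervals are not adjusted for the number of probe sets.

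**Figure D2:**
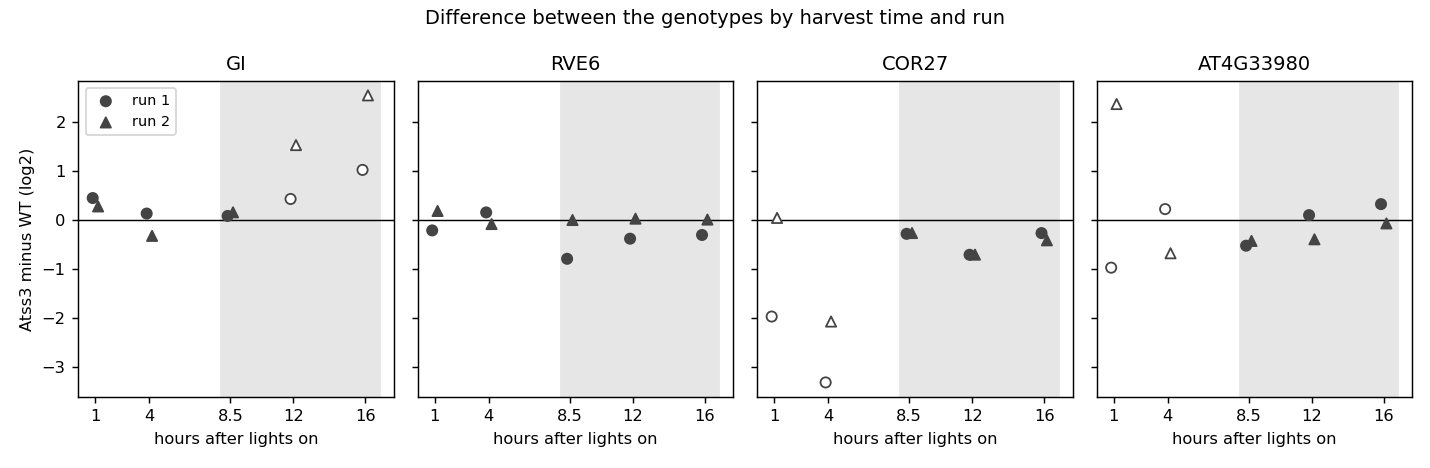
Difference Atss3 minus WT on the log2 scale for each pair of arrays that share time and run, against hours after lights on, with open symbols where an array of the pair was dim and the pale area for darkness. The widest differences, from -3.31 for COR27 at 4 h to 2.54 for GI at 16 h, are open symbols, and the filled symbols of COR27 at 8.5, 12 and 16 h all lie under 0.

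Both of the larger differences lay mostly in dim groups. With raised signals the mean difference of COR27 was -0.22 and that of GI 0.12. Over 8.5, 12 and 16 h alone, times chosen after the data were seen because no COR27 array was dim, COR27 was lower in Atss3 in 6 of 6 pairs, with a mean of -0.44 (SE 0.24, limma adjusted p = 0.461, with 0.0129% of tested probe sets called). Being lower in all 6 of those pairs was seen for 3.63% of tested probe sets. Over 1, 4 and 8.5 h alone, chosen in the same way for GI, its mean difference was 0.13 (adjusted p = 0.869, with 0.0646% called). Without the Atss3 1 h array of run 2, where COR27 measured 33.4 against 7.96 in run 1, the difference of COR27 over the 5 times was -1.16 and passed (adjusted p = 0.0102). Both of those signals are dim.

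At single times, none of the 20 differences of these genes passed after adjustment, and calls were made for 0.11% of tested probe sets at 1 h, 0.0129% at 4 h, 0.0129% at 8.5 h, 0.0194% at 12 h and 0.0259% at 16 h. The COR27 difference at 12 h was the same in both runs, at -0.71 each, and both Atss3 arrays, 1266 and 1374, lay below both WT arrays, 2072 and 2243. Its adjusted p was 0.591, and 19.5% of tested probe sets had both Atss3 arrays below both WT arrays at 12 h. At 4 h COR27 was lower by 2.69 on the log2 scale in Atss3 (unadjusted p = 2.42e-05, adjusted p = 0.0935), all on dim arrays, and with raised signals the difference was 0.13. That difference was -2.69 as before without either of the Atss3 1 h arrays. With a filter at the 60th percentile it was also -2.69 and passed (limma adjusted p = 0.0359). Such settings change the estimate of spread or the set of probe sets tested and not the difference itself. That pass is therefore no separate support for it.

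GI at 12 and 16 h was dim on all 8 arrays, with both Atss3 arrays above both WT arrays at each time. At 16 h that difference was 1.78 (unadjusted p = 0.00104, adjusted p = 1.0) and 0.037 with raised signals. Groups without overlap in that direction were seen for 21.1% of tested probe sets at 12 h and 12.9% at 16 h. AT4G33980 at 8.5 h was lower in both runs, by 0.53 in run 1 and 0.43 in run 2 (adjusted p = 0.807), with 14.8% of tested probe sets showing both Atss3 arrays below both WT arrays there. RVE6 at 8.5 h also had both Atss3 arrays below both WT arrays, with a difference of -0.79 in run 1, while in run 2 the signals were 527 in Atss3 and 528 in WT (adjusted p = 0.609).

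A difference between the genotypes in the course itself was not called for any of the 4 genes in limma's interaction test over 4 differences. Adjusted p were 0.70 for GI, 0.977 for RVE6, 0.558 for COR27 and 0.964 for AT4G33980, and 0.00646% of tested probe sets were called. Unadjusted p were under 0.05 for COR27 (0.00763) and GI (0.0474). With raised signals the adjusted p for COR27 was 0.597 and that for GI 0.999. With 2 arrays per group, a p that misses the threshold does not show that the courses are alike.

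GI was higher in run 1 than in run 2 in all 6 groups where it was not dim. The fold of run 1 over run 2 was 2.34 in WT and 2.63 in Atss3 at 1 h, 2.21 and 2.10 at 8.5 h, and 1.07 and 1.47 at 4 h. Those at 1 and 8.5 h exceeded the difference between runs of 96.8% to 99.6% of the 11900 probe sets that were over the 40th percentile on every array, whose median absolute difference was 0.19 to 0.31 per group on the log2 scale. At 4 h the share exceeded was 22.5% in WT and 86.0% in Atss3.

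COR27 and AT4G33980 were higher in run 2 in 6 of 6 groups that were not dim. How many tested probe sets keep 1 direction in all such groups was not counted, here or for GI. In these groups the COR27 difference exceeded that of 26.5% to 79.4% of the 11900 probe sets over the 40th percentile on every array. For AT4G33980 that share was 47.9% to 98.8%. The mean of run 2 minus run 1 was 0.33 for COR27 and 0.60 for AT4G33980, and the widest for AT4G33980 was 1.12 at 12 h in WT, where run 1 measured 313 and run 2 677. RVE6 was higher in run 2 in 5 of 10 groups, those of 12 and 16 h in both genotypes and 8.5 h in Atss3. The run was a block in the fit, so a shift common to all groups does not enter the contrasts above.

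**Figure D3:**
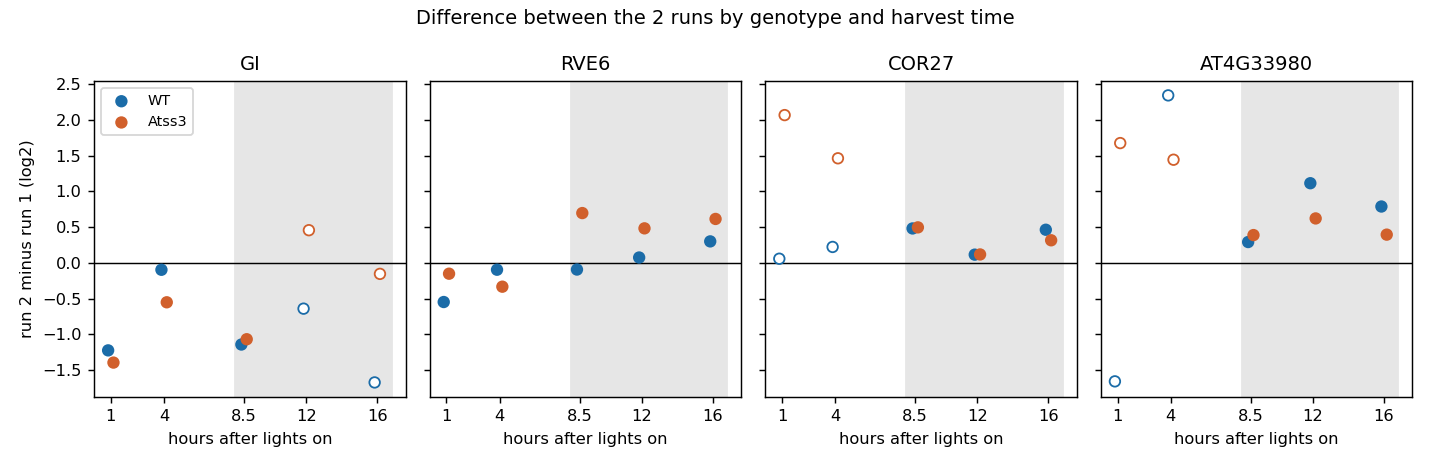
Run 2 minus run 1 on the log2 scale for each genotype and harvest time, with open symbols where both arrays of the group were dim and the pale area for darkness. The filled symbols of GI lie under 0, from -1.40 to -0.10, and those of COR27 and AT4G33980 lie over 0, up to 0.50 and 1.12.

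The genes whose courses were most like each of the 4 were found by the Pearson r over the 10 group means, with raised signals, among 2859 named probe sets whose time course passed in each genotype. The 5 nearest to GI were TIL, a temperature-induced lipocalin (r = 0.972), AT1G12990 (0.967), AT2G32150 (0.958), AT5G54940 (0.945) and AT5G55400 (0.941). TIL had mean signals of 7710 at 8.5 h and 2657 at 12 h in WT, and none of its 20 arrays was dim. AT2G32150 had the widest span of these 5, at 3.49 in WT and 2.86 in Atss3 on the log2 scale.

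The 5 nearest to RVE6 were AT5G43260 (r = 0.966), AT1G31940 (0.963), PUB19, a U-box ubiquitin ligase (0.962), AT3G14200 (0.958) and AT4G28290 (0.956). All of them were highest at 1 h in both genotypes, as RVE6 was, which follows in large part from their choice by likeness to its course. PUB19 fell from a mean of 1134 at 1 h to 222 at 12 h in WT and from 1181 to 168 in Atss3, a wider span than that of RVE6.

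COR27 was most like AT4G37250 (r = 0.994), AT3G18930 (0.993), AT5G37740 (0.988), AT2G30930 (0.986) and AT2G36410 (0.985). AT4G33980 was most like AT4G28085 (0.991), AT1G07050 (0.99), AT2G36410 (0.989), SWEET4, a sugar transporter (0.987), and AT5G17850 (0.987). Several of these neighbours were dim themselves: AT4G37250, AT4G28085 and AT5G17850 on 7 arrays, AT3G18930 on 6, AT1G07050 on 8 and SWEET4 on 1. Raising gives a gene and its neighbour the same value on any array where both are dim, so these r are partly set by construction. AT2G36410 stood in both lists, with WT means of 287 at 1 h, 1390 at 8.5 h and 753 at 16 h. AT2G30930 rose from 835 at 4 h to 6036 at 8.5 h in WT and from 916 to 6338 in Atss3. With signals as deposited, 4 of the 5 named genes were again among the nearest 5 for GI and 5 of 5 for RVE6. For COR27 this held for 1 of 5 and for AT4G33980 for 0 of 5. GI, COR27 and AT4G33980 were each dim on 8 arrays, so that number does not set COR27 and AT4G33980 apart from GI. RVE6 was never dim, and of its 5 neighbours only AT3G14200 had dim arrays, so its 5 of 5 was largely set by construction.

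**Figure D4:**
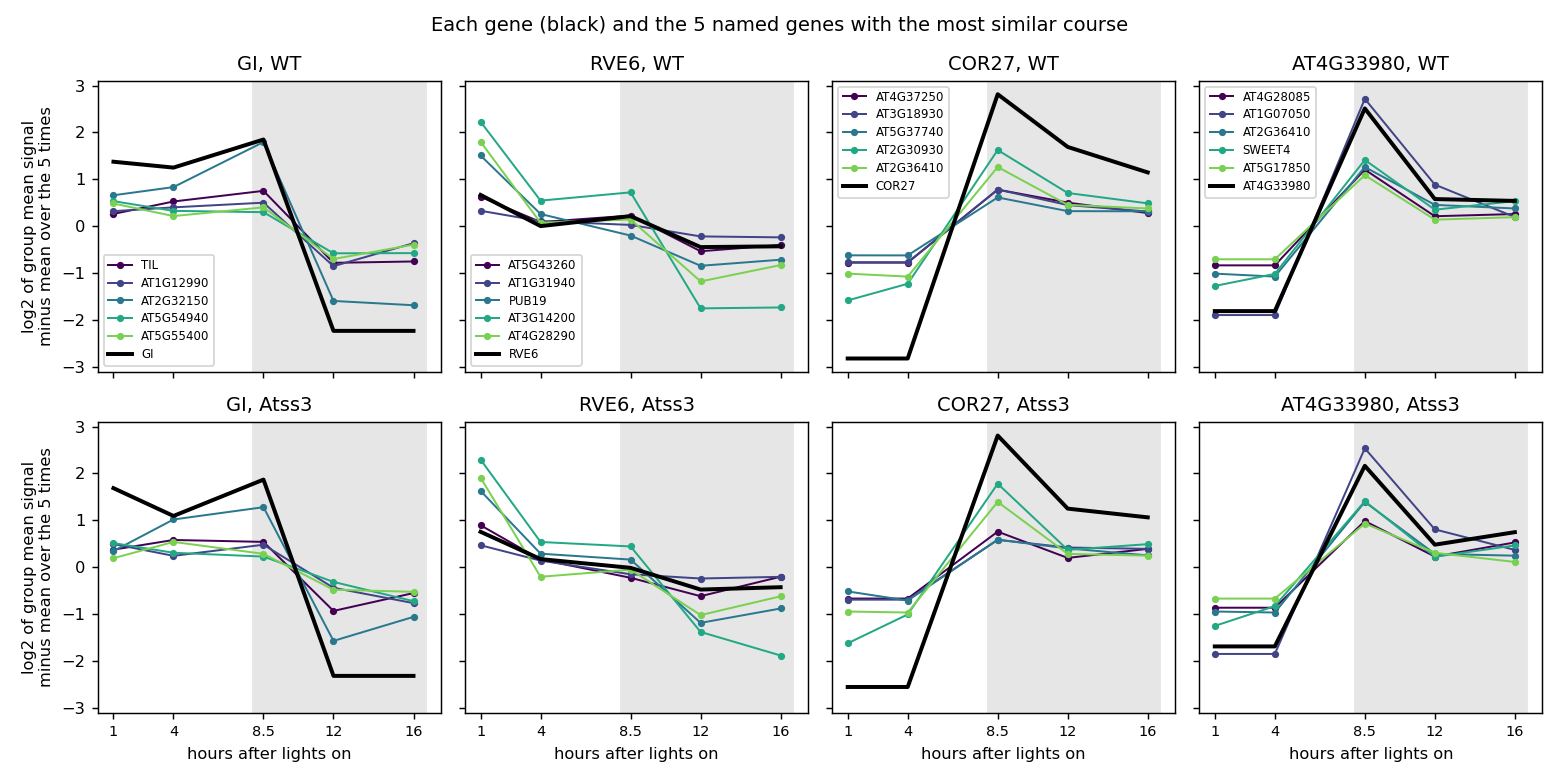
Group mean signal on the log2 scale, less its mean over the 5 times, for each gene (black) and its 5 nearest named genes, by genotype, against hours after lights on. Group means under 94.3, the mean of the arrays' 40th percentiles, were drawn at that value, and the black line of COR27 spans more than the lines of its 5 neighbours.

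Of the wider clock and its inputs and outputs, 72 loci in 6 lists were looked up, and 8 had a named and tested probe set, of which 6 were called over time in each genotype, beside 44.2% of all tested probe sets in WT and 48.0% in Atss3. None was called between genotypes, beside 0.0194% of all tested probe sets. Of 17 core clock genes, TIC and XCT were measured. Neither passed over time (limma adjusted p = 0.288 and 0.369 in WT, 0.243 and 0.691 in Atss3), with spans of 0.76 and 0.54 in WT. TIC (TIME FOR COFFEE) and XCT (XAP5 CIRCADIAN TIMEKEEPER) are nuclear proteins needed for normal clock timing. CCA1, LHY, TOC1 and the other listed core genes were not analysed here.

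RVE5, a MYB-like relative of RVE6, was the 1 measured gene of 11 in the list of REVEILLE and LNK genes. It was highest at 1 h, at 814 in WT and 943 in Atss3, and lowest at 8.5 h, at 243 and 281, with a span of 1.75 in each genotype (limma adjusted p = 0.000105 and 0.000103). Unlike RVE6, it had its lowest group mean at 8.5 h and not at 12 h, but the step between those times passed for neither gene. From 8.5 to 12 h RVE5 changed by 0.23 in WT (limma adjusted p = 0.497) and 0.21 in Atss3 (0.62). RVE6 changed by -0.66 (0.142) and -0.44 (0.421). CDF5, a DOF factor that represses CONSTANS, was the 1 measured gene of 10 in photoperiodic flowering, and was highest at 1 h, at 231 and 241, and dim on 8 arrays. HYH, a bZIP factor related to HY5, was the 1 measured gene of 19 in light input and fell from 1321 at 1 h to 36.0 at 8.5 h in WT and from 1775 to 63.7 in Atss3. It was dim on 7 arrays. Its span was 5.20 in WT and 4.79 in Atss3 as deposited, and 3.93 and 4.12 with raised signals.

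The 3 measured genes of 13 in the cold regulon had their highest group mean at 8.5 h, as COR27 and AT4G33980 did. Of the 5534 probe sets whose time course passed in both genotypes, 24.9% peaked at 8.5 h in WT and 21.4% in Atss3. COR15A, a stromal protein that protects chloroplast membranes, measured 17660 at 8.5 h and 2879 at 16 h in WT, and 20980 and 1905 in Atss3. Its close relative COR15B measured 10180 and 539 in WT, and the dehydrin COR47 14610 and 4121. COR15A and COR15B rose between 1 and 4 h in both genotypes, by 0.75 to 2.08 on the log2 scale (limma adjusted p from 0.000488 to 0.0107), a step called for 16.5% of tested probe sets in WT and 23.6% in Atss3, while COR27 and AT4G33980 were dim at both times. COR47 did not pass at that step, at -0.26 in WT (limma adjusted p = 0.646) and -0.44 in Atss3 (0.363), and had its lowest group mean at 4 h in both genotypes. The difference, Atss3 minus WT, was -0.27 for COR15A, -0.25 for COR47 and 0.05 for COR15B, so the 3 genes did not share a direction. The median over all tested probe sets was 0.02, and none of the 3 was called. COR15A and COR15B are close relatives with adjacent probe set numbers, and whether their probe sets share RNA was not tested.

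**Figure D5:**
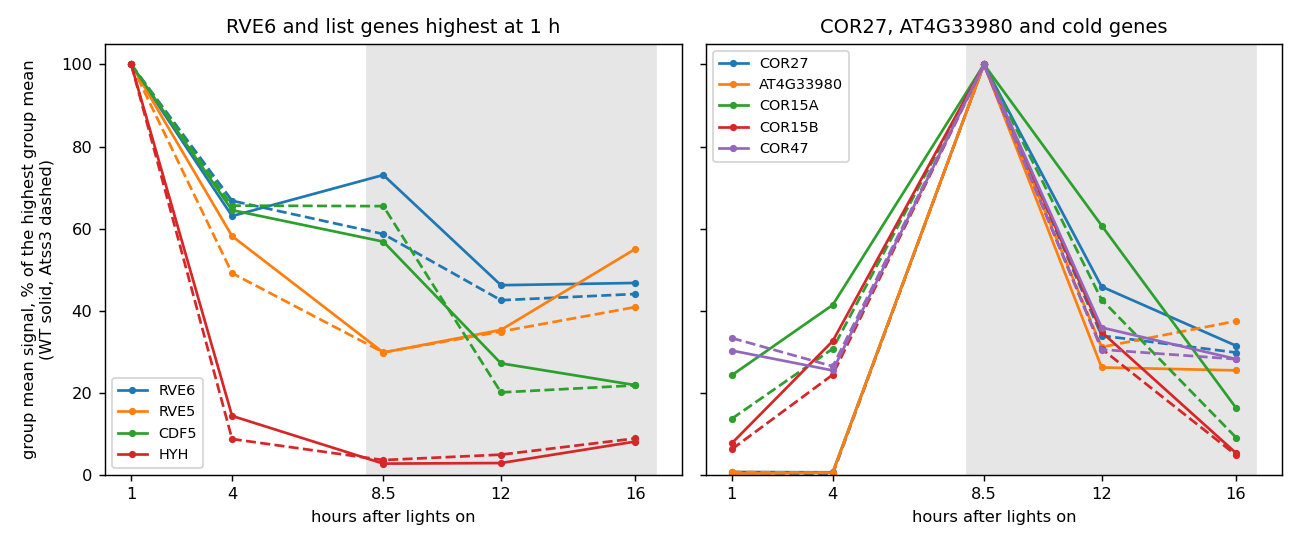
Group mean signal as a percentage of the gene's highest group mean against hours after lights on, solid for WT and dashed for Atss3, with the pale area for darkness. RVE6, RVE5, CDF5 and HYH are at 100% at 1 h, and COR27, AT4G33980, COR15A, COR15B and COR47 are at 100% at 8.5 h, with COR27 and AT4G33980 near 0 at 1 and 4 h.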

How the data were processed

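Total RNA from leaves was labelled with biotin and measured on 1-colour arrays. Per the submitters' processing notes the deposited intensity values were made with MAS5, with no version stated in the notes. The authors had scaled each array to a 2% trimmed mean of about 500.04, and the table was used as deposited. Of 22810 probe sets, 64 controls were left out. Intensities under 1 (95 to 244 per array) were raised to 1, and log2 was computed here from the deposited values. Probe sets were kept that exceeded the 40th percentile of the array in question 2 or more times. Arrays carry no counts, so their number limits the precision.

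All 20 arrays entered 1 linear model in limma 3.58.1 under R 4.3.3, with a mean per group and the run as a block, 9 residual and 3.45 prior degrees of freedom. P-values are 2-sided, adjusted by Benjamini-Hochberg over 15470 probe sets within a contrast, with a threshold of 0.05. The fit was tested on simulated data. The labels say that the experiment was done as 2 separate runs, so run numbers pair the arrays; deviations from group means correlated over 0.1 in 41 of 45 pairs of groups (median 0.20, range -0.11 to 0.44). An alternative raised each signal to its array's 40th percentile; "at least" folds come from it. Other alternatives changed the added constant, normalization, centring, filter, block and arrays used. Names came from the platform annotation, which lists 14016 probe sets, 13513 of them with 1 gene, of which 13436 matched assembly TAIR10.1; other probe sets are unnamed here. For lists, a gene with several probe sets took the brightest. Named genes are the 4 genes, SS3, the 5 courses nearest to each gene, and every measured gene of the lists. AT2G30930, AT2G36410, TIL, PUB19 and AT2G32150 were singled out among those after their values were seen. The 4 genes and the lists were chosen with earlier results of these data known. Promoter motifs were planned and not searched, since no promoter sequence was used here. Figures were drawn with matplotlib 3.10.9 under Python 3.11.15.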

Additional observations from a re-analysis of the deposited data

Results flagged for a closer look

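In AT4G33980, 1 of the 10 differences between genotypes stood apart from the others. At 1 h in run 2, Atss3 minus WT was 2.36 on the log2 scale, where Atss3 measured 14.4 and WT 2.79, both dim. Its gap to the next highest was 0.612 of the range of all 10 differences, above Dixon's 95% critical value for that number. Chance flags about 1 in 20 such groups, and 8 extremes of 4 genes were looked at. With raised signals this difference was -0.09.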

How the results depend on the processing

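Time course calls of GI, COR27 and AT4G33980 held in both genotypes under all 27 alternatives each, with spans from 3.64 (GI, Atss3) to 10.3 (COR27, Atss3). That of RVE6 in WT, 1.09, held under 22 of 27, with spans of 0.73 to 1.45 when single arrays were left out, and was 1.09 (adjusted p = 0.0583) with no filter; in Atss3 the range over left-out arrays was 1.11 to 1.502. With no replicate block, which ignores the pairing by run, no time course call changed, and the COR27 steps from 8.5 to 16 h were -1.67 (adjusted p = 0.0664) in WT and -1.73 (0.054) in Atss3. With raised signals the signs of differences between dim groups turned: 0.056 for COR27 and for AT4G33980 from 1 to 4 h in Atss3, 0.0053 for COR27 from 1 to 4 h in WT, 0.084 for GI from 12 to 16 h in WT, and for Atss3 minus WT 0.0797 for COR27 at 1 h and 0.13 for COR27 and AT4G33980 at 4 h; raising by construction leaves such groups at the percentile. Arrays centred on their medians gave RVE6 -0.036 at 4 h. In run 2 alone the genotype difference was 0.16 for AT4G33980 and 0.027 for RVE6.

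Leaving out single arrays turned the sign of small genotype differences, with these ranges: AT4G33980 -0.64 to 2.03 at 1 h, -1.12 to 0.66 at 4 h, -0.36 to 0.0601 at 12 h, -0.066 to 0.32 at 16 h and -0.27 to 0.26 over the 5 times; RVE6 -0.37 to 0.34 at 1 h, -0.20 to 0.27 at 4 h, -0.39 to 0.038 at 12 h and -0.44 to 0.14 at 16 h; GI -0.46 to 0.27 at 4 h and -0.10 to 0.34 at 8.5 h. COR27 ran from -1.16 to -0.83 over the 5 times. The cause was not tested. Over all probe sets, genotype calls numbered 3, and 8 with 64 added, 11 with quantile normalization, 5 with median centring, 5 with the filter at the 60th percentile, 86 in run 1 alone and 2 to 13 with an array left out. Interaction calls numbered 1, and 0 with raised signals, with 64 added, with no filter, with the 60th percentile and with no replicate block, and 0 to 8 with an array left out. Whether dim signals exceed the background was not tested, since the table used here gives no detection calls.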
